A study of Mus musculus with 4 samples.

Results

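The chaperonin CCT, also called TRiC, is the barrel in the cytosol that folds actin, tubulin and other proteins. Its 8 subunits are products of separate genes, and the 8 mRNAs Tcp1, Cct2, Cct3, Cct4, Cct5, Cct6a, Cct7 and Cct8 were followed here in an RNA immunoprecipitation of the transcription factor RUNX1. The genes were taken by name, and all 8 were found among the 55573 gene identifiers of the count table. RIP-seq recovers RNA on beads that carry an antibody and sequences it, and IgG beads give the background of the procedure. The starting cells were CD31-positive (Cd31+) cells sorted from the caudal part of wild-type (WT) C57BL/6 embryos at embryonic day 10. The antibody was against Runx1 in 2 libraries (the Runx1 libraries below) and IgG in 2 others, and the labels name no other difference between the groups. Whether replicates stem from different embryos or sorts is not stated, so a p-value here weighs the spread of these libraries, possibly technical spread alone.

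Each subunit takes one place in a ring, and a pair of rings stacked back to back encloses the folding chamber. The rings bind and hydrolyse ATP, which closes a built-in lid over the client protein. In yeast the side of the ring formed by the counterparts of Cct5, Cct2, Cct4 and Tcp1 binds ATP more strongly than the side formed by the counterparts of Cct7, Cct8, Cct6a and Cct3. Newly made actin and tubulin reach the chamber with the help of prefoldin, and dividing cells, which make much of both, are known for high CCT levels. In the embryo, RUNX1 is needed for the step in which endothelium gives rise to blood stem and progenitor cells.

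The mRNA stretch that encodes the nucleotide-binding signature of these chaperonins is shown first, because it is what the 8 RNAs visibly share while differing around it. The capitals mark the signature, GGNGATGGNAC in all 8 (N is any base, sense strand, in frame), and 20 bases of coding sequence stand on each side.
Tcp1: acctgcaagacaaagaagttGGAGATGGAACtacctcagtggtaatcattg
Cct2: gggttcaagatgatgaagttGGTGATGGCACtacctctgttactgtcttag
Cct3: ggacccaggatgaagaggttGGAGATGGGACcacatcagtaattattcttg
Cct4: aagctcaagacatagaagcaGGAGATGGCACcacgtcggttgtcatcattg
Cct5: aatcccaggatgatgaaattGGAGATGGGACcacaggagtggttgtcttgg
Cct6a: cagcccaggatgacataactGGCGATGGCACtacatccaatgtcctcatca
Cct7: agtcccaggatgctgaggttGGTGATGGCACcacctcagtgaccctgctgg
Cct8: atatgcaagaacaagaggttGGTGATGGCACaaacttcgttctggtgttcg
The sequences are from the GENCODE M21 transcripts (GRCm38, the mm10 build), and each of the 8 coding parts holds exactly 1 such match. The pattern was read off the 8 genes themselves and occurs in frame in 0.779% of 21951 protein-coding genes. It is spelled GGTGATGGCAC in Cct2, Cct7 and Cct8 and GGAGATGGGAC in Cct3 and Cct5, and the other members each have a spelling of their own. Over the 51 bases printed, pairs of members were 47.1% identical (Cct6a with Cct8) to 74.5% identical (Cct3 with Cct7, and Tcp1 with Cct4), with a median of 61.8% over 28 pairs. Beyond this stretch no member shared 200 bases at 95% identity with another member. Shorter shared stretches, which could also mix the reads of a pair of subunits, were not examined.

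The genes are scattered over 8 chromosomes. In GRCm38, Tcp1 lies on chromosome 17 (12915701 to 12925067), Cct2 on chromosome 10 (117051001 to 117063814), Cct3 on chromosome 3 (88297116 to 88321767) and Cct4 on chromosome 11 (22990519 to 23003780). Cct5 lies on chromosome 15 (31590800 to 31601804), Cct6a on chromosome 5 (129786998 to 129846371), Cct7 on chromosome 6 (85451514 to 85468475) and Cct8 on chromosome 16 (87483326 to 87495873). Cct6a is listed in this annotation without a coding transcript, so the longest open reading frame of its longest transcript was used for it. The other 7 are annotated as protein-coding.

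Gene counts totalled 1675488 and 1887301 in the Runx1 libraries, against 3843318 and 2482045 in the IgG libraries. CD31's own mRNA, Pecam1, stood at 93.1 and 103 CPM (counts per 1000000 gene counts) in the Runx1 libraries and at 99.9 and 79.4 CPM in the IgG libraries. Summed over 8 endothelial markers, all of which had counts, the level was 1452 and 1181 CPM in the Runx1 libraries, against 1501 and 1391 CPM in the IgG libraries. Kdr alone made up most of this sum, with 836 and 663 CPM against 863 and 873 CPM. Of the 8 endothelial markers, 1 had both Runx1 libraries above both IgG libraries and 3 had both below, where 24.1% and 21.3% of all tested genes did. With edgeR and limma-voom 0 of the 8 were called, with DESeq2 0 of the 7 that had an adjusted p, and with no adjustment 1, Tek, was lower at a p under 0.05 in edgeR (log2 fold change -0.81 ± 0.30). Over all genes, 1766 of the 12401 tested had an unadjusted edgeR p under 0.05, in either direction. Summed over 7 erythroid markers the level was 850 and 849 CPM in the Runx1 libraries and 482 and 450 CPM in the IgG libraries, and summed over 6 neural markers it was 633 and 519 CPM against 401 and 381 CPM. Nes alone made up most of the neural sum, with 485 and 388 CPM against 303 and 311 CPM. The groups overlapped in Sox1 (0 and 1.59 against 12.7 and 1.21 CPM) and Pax6 (10.1 and 9.01 against 11.2 and 6.04 CPM). Of the 6 erythroid markers abundant enough to test, all 6 had both Runx1 libraries above both IgG libraries, as had 24.1% of all tested genes. With edgeR 0 of them passed after adjustment and 4 had an unadjusted p under 0.05, limma-voom called 0, and DESeq2 called 2, the haemoglobin genes Hbb-y and Hba-x. Of the 5 neural markers tested 3 had both Runx1 libraries above, 0 were called by edgeR or limma-voom, DESeq2 called 0 of the 3 to which it gave an adjusted p, and 1 had an unadjusted p under 0.05. No erythroid or neural marker was at 0 in all libraries. Summed levels were 90.7 and 206 CPM in the Runx1 libraries against 90.8 and 75.3 CPM in the IgG libraries for macrophage markers, and 70.4 and 149 against 63.2 and 59.6 CPM for platelet markers, of which Gp1bb was at 0. The macrophage marker Csf1r alone stood at 144 CPM in Runx1 replicate 2. Mesenchymal markers summed to more, 1051 and 1144 CPM in the Runx1 libraries against 1075 and 1062 CPM in the IgG libraries. The part of these other cells in the results below was not tested. For a marker that differs between the antibodies, the number of cells of a type, the RNA per cell and the recovery on the beads cannot be told apart. Spike-in RNAs, synthetic RNAs that do not come from the cells, made up 0.0356% and 0.0378% of the gene total in the Runx1 libraries, against 0.0129% and 0.0175% in the IgG libraries, from 434 to 713 counts per library.

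With the Runx1 antibody, CCT mRNAs took a larger part of the gene counts than with IgG, and they did so unequally. Cct7 rose 2.02-fold relative to the typical gene and was the only one of the 8 to pass the test over all genes. Cct5 (1.64-fold) and Cct3 (1.60-fold) came next without passing, and Cct8 stood at 0.928-fold. Relative to the spike-in RNAs the direction was the opposite: all 8 log2 fold changes were below 0 under that scaling. Each of these statements is therefore about a share of the recovered mRNA and not about an amount. How much spike-in RNA was added, and at which step, is not stated in the labels.

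Counts of the 8 genes together were 6772 and 6284 in the Runx1 libraries, against 10027 and 6286 in the IgG libraries. They made up 0.404% (95% Wilson interval 0.395% to 0.414%, counting error only) and 0.333% (0.325% to 0.341%) of the gene counts in the Runx1 libraries, against 0.261% (0.256% to 0.266%) and 0.253% (0.247% to 0.260%) in the IgG libraries. The summed level averaged 3686 ± 504 CPM under the Runx1 antibody and 2571 ± 54.0 CPM under IgG (SD, n = 2 each), a ratio of 1.43. The Runx1 libraries lay above the IgG libraries and differed from each other by more than the IgG libraries did. Per spike-in count there were 11.4 and 8.81 CCT counts in the Runx1 libraries and 20.3 and 14.5 in the IgG libraries, which turned the order of the groups round. With 2 libraries each, an exact permutation test of a single value cannot give a two-sided p below 0.333, and no test was made of the sum.

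**Figure D1:**
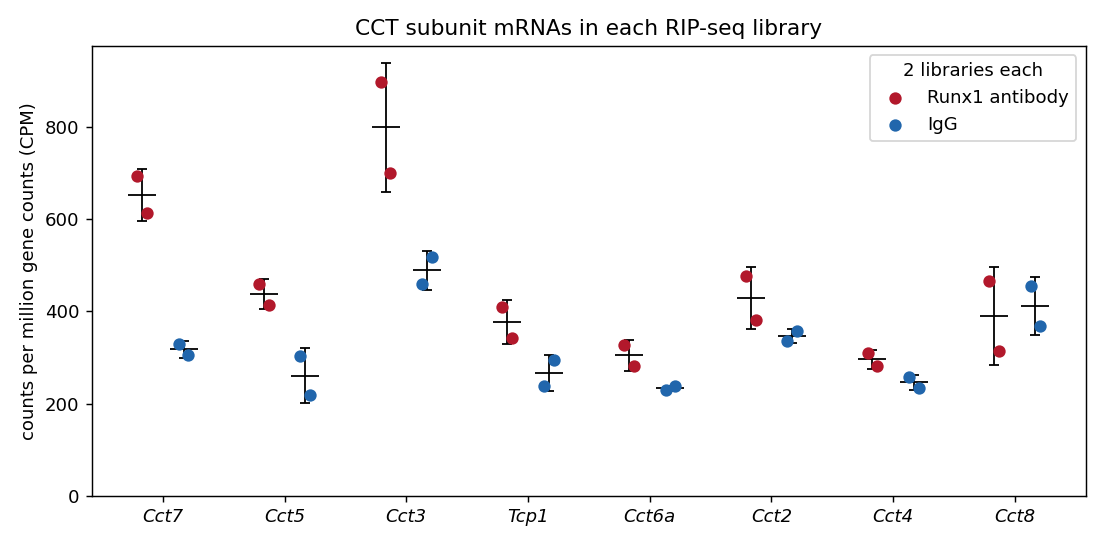
Level of each CCT subunit mRNA (vertical axis, CPM) in the 2 libraries with the Runx1 antibody (red, left of each pair) and the 2 with IgG (blue, right), ordered by fold change, with black bars for the mean ± SD. Cct7 shows the widest gap for its spread (653 ± 56.1 CPM under the Runx1 antibody, 317 ± 17.4 CPM under IgG, SD, n = 2 each), the libraries of Cct8 overlap, and under spike-in scaling all 8 genes lie lower with the Runx1 antibody.

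On the side of the ring that binds ATP less strongly in yeast, the log2 fold changes ran from -0.11 to 1.01, that is from Cct8 to Cct7. Cct7, the eta subunit, stood at 693 and 614 CPM in the Runx1 libraries and at 330 and 305 CPM with IgG. The groups were far apart for the spread inside each, with a log2 fold change of 1.01 and an SE of 0.15 (adjusted p = 0.0371, quasi-likelihood test of edgeR). Its call was lost with the replicate number as a block (edgeR adjusted p = 0.110) and once transcript length and GC content were corrected for (0.78 ± 0.16, edgeR adjusted p = 0.0822), and it was made in the other 11 settings run besides the spike-in scaling. Cct3, the gamma subunit, whose mRNA had the highest level per length of the 8, stood at 898 and 700.5 CPM in the Runx1 libraries and at 459 and 519 CPM with IgG. The groups of Cct3 did not overlap, yet with a log2 fold change of 0.68 ± 0.16 it stayed short of the threshold (edgeR adjusted p = 0.113). Cct3 passed in DESeq2 (where 1.98% of tested genes were higher) and in limma-voom (0.823%), without a low-count filter, with a strict one, and without Runx1 replicate 2, whose removal brought the edgeR adjusted p to 0.00300.

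Cct6a, the zeta subunit, whose close relative Cct6b serves in the testis, stood at 328 and 281 CPM in the Runx1 libraries and at 230 and 237 CPM with IgG. Its groups did not overlap, with a log2 fold change of 0.35 ± 0.19 and an edgeR adjusted p = 0.460. Cct6b itself had 0 counts in all 4 libraries, which allows up to 1.79, 1.59, 0.781 and 1.21 CPM in Runx1 replicates 1 and 2 and IgG replicates 1 and 2. Cct8, the theta subunit, stood at 466 and 315 CPM in the Runx1 libraries and at 455 and 367 CPM with IgG. The IgG libraries lay between the Runx1 libraries, with replicate 1 the higher library in each group, and the log2 fold change was -0.11 ± 0.22 (edgeR adjusted p = 0.890). Its sign changed to 0.13 without Runx1 replicate 2 and to 0.041 without IgG replicate 1.

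On the other side of the ring the log2 fold changes ran from 0.24 (Cct4) to 0.72 (Cct5), and none passed. Cct5, the epsilon subunit, in which a mutation causes a sensory neuropathy in people, stood at 460 and 414 CPM in the Runx1 libraries and at 303 and 218 CPM with IgG. The Runx1 libraries again lay above, at a log2 fold change of 0.72 ± 0.20 with an edgeR adjusted p = 0.175. DESeq2 was the only setting in which Cct5 was called (DESeq2 adjusted p = 0.0208). Tcp1, the alpha subunit, named after the t-complex of the mouse, stood at 410 and 343 CPM in the Runx1 libraries and at 239 and 295 CPM with IgG (log2 fold change 0.47 ± 0.19, edgeR adjusted p = 0.324). The nearest libraries of its 2 groups were closer to each other than the libraries within either group.

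Cct2, the beta subunit, stood at 477 and 382 CPM in the Runx1 libraries and at 336 and 358 CPM with IgG (log2 fold change 0.28 ± 0.18, edgeR adjusted p = 0.542). Cct4, the delta subunit, in which a mutation causes a sensory neuropathy in the rat, stood at 310 and 281 CPM in the Runx1 libraries and at 258 and 234 CPM with IgG (log2 fold change 0.24 ± 0.19, edgeR adjusted p = 0.650). In both genes the groups were separate by a gap smaller than the distance between the Runx1 libraries. Cct2 and Cct4 were called in 0 of the 13 settings other than the spike-in scaling, under which both were called lower.

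All 8 genes passed the low-count filter. At an edgeR false discovery rate of 0.05, 1 of the 8 was higher and 0 were lower (with no adjustment 4 and 0 had a p under 0.05, and DESeq2 called 3 and 0 and limma-voom 2 and 0), where 0.306% of the 12401 tested genes were higher and 0.339% lower. An unadjusted edgeR p under 0.05 was found for 1766 of the 12401, both directions together. Among the 2381 genes that, like all members, had a mean of at least 100 CPM, the shares were 1.55% and 1.72%. Both Runx1 libraries lay above both IgG libraries in 7 of the 8, against 24.1% of tested genes and 23.4% of those with at least 100 CPM. The reverse held for 0 of the 8, against 21.3% of tested genes. The median log2 fold change of the 8 was 0.41, beside 0.027 for all tested genes and -0.14 for those with at least 100 CPM. The lowest count behind any of these values was 520 (Cct4 with the Runx1 antibody, 95% Poisson interval 476 to 567).

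Scaling to the spike-ins moved the median of all tested genes to -1.25 (log2), a shift that most genes shared. Under it the CCT log2 fold changes ran from -0.27 (Cct7) to -1.40 (Cct8), and Cct8, Cct4, Cct2 and Cct6a were called lower (edgeR adjusted p = 0.00738, 0.0289, 0.0298 and 0.0488), as were 31.6% of all tested genes. Relative to the median gene under this scaling, Cct7 stood at 0.98, Cct3 at 0.68, Cct5 at 0.66, Tcp1 at 0.47, Cct6a at 0.34, Cct2 at 0.27, Cct4 at 0.21 and Cct8 at -0.14. These differences from the typical gene are close to those above, while the amount per spike-in count had the opposite sign for 7 of the 8.

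**Figure D2:**
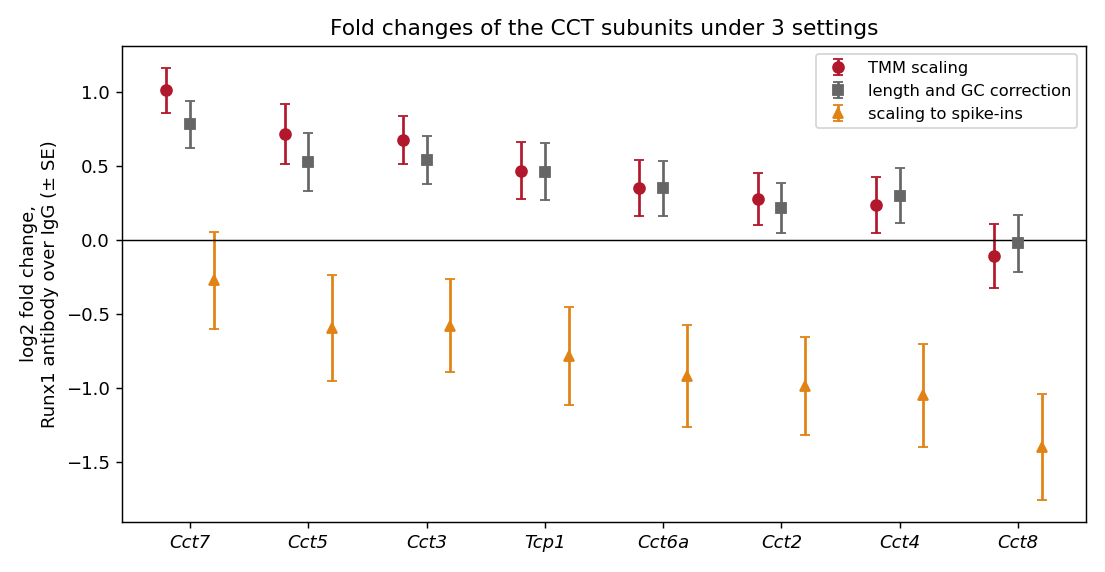
Log2 fold change of each CCT subunit, Runx1 antibody over IgG, with bars for ± SE, under TMM scaling (circles), after a length and GC correction (squares) and scaled to spike-in RNAs (triangles). Cct7 is uppermost and Cct8 lowest in all 3, and the spike-in scaling puts every point below 0, from -0.27 to -1.40.

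The subunit mRNAs did not stand in equal amounts, although the complex holds its subunits in equal numbers. Per kilobase of transcript, the highest level was that of Cct3 in both groups, with 404 ± 70.7 CPM per kb under the Runx1 antibody and 247 ± 21.5 CPM per kb under IgG (SD, n = 2 each). With the Runx1 antibody the levels per kb then ran Cct7 (268), Cct5 (236), Cct2 (219), Cct8 (163), Tcp1 (154), Cct6a (124) and Cct4 (119). Of the neighbours in that order, Cct5 and Cct2, Cct8 and Tcp1, and Cct6a and Cct4 had overlapping libraries. The ratio of the highest to the lowest level per kb was 3.39.

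With IgG the levels per kb ran Cct3 (247), Cct2 (177), Cct8 (172), Cct5 (141), Cct7 (130), Tcp1 (109), Cct4 (98.9) and Cct6a (95.1), and the highest was 2.60 times the lowest. Only Cct3 with Cct2, and Cct7 with Tcp1, were neighbours whose libraries did not overlap. Cct7 took the second place in the Runx1 libraries and the fifth in the IgG libraries, and Cct8 the fifth in the Runx1 libraries and the third in the IgG libraries. Such levels depend on the transcript chosen for the length.

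Cct7 and Cct8, neighbours in the ring, changed places, a pair singled out after its values were seen. Cct7 had 1.49 times the counts of Cct8 (exact 95% interval 1.36 to 1.63, counting error only) and 1.95 times (1.76 to 2.16) in the Runx1 libraries, against 0.724 times (0.673 to 0.779) and 0.830 times (0.753 to 0.915) in the IgG libraries. A ratio inside a library is the same under every scaling by a factor per library, the spike-ins included. Of all CCT counts, Cct7 made up 17.8% ± 0.91 in the Runx1 libraries and 12.3% ± 0.42 in the IgG libraries, and Cct8 10.5% ± 1.46 and 16.0% ± 2.08 (SD, n = 2 each). The shares of Tcp1 (10.2% ± 0.11 and 10.4% ± 1.76) differed by less than the spread of the IgG libraries.

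The order of the fold changes followed the GC content of the transcripts almost gene by gene. GC content was 54.0% in Cct7, 50.2% in Cct5, 49.3% in Cct3, 47.4% in Cct6a and in Tcp1, 47.2% in Cct2, 45.1% in Cct4 and 43.3% in Cct8. Across the 8 genes, fold change and GC content had Pearson's r of 0.97 and Spearman's rho of 0.98. This is a description of 8 genes that share the same 4 libraries, found after the values were seen. In each of the 4 pairs of a Runx1 with an IgG library rho was 0.86 to 0.98, while the difference between the Runx1 replicates gave -0.33 and that between the IgG replicates -0.048.

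The relation depended on which sequence stood for a gene. It used the transcript with the longest coding part, and rho was 0.74 with the GC content of the coding part alone and 0.21 with the longest transcript of each gene, some of which keep introns. With transcript length rho was -0.31, and with the length of the 3′ UTR, from 131 bases in Cct5 to 777 in Cct6a, it was -0.79. The coding part and 3′ UTR of Cct6a come from its longest open reading frame. That frame has 1236 bases, against 1605 (Cct2) to 1668 (Tcp1) in the annotated members. The 777 bases may therefore include coding sequence, which was not tested, and the rho values of 0.74 and -0.79 both use this frame. Other genes showed the same tendency less tightly. Over the 2381 tested genes of at least 100 CPM rho was 0.33, and the median log2 fold change was -0.32 at 42 to 44% GC, the range of Cct8, and 0.011 at 52 to 54%, the range of Cct7.

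Set beside abundant genes of like GC content, all 8 members lay above the median of their 2-point GC range and 7 above its upper quartile, Cct8 being the exception. For Cct7 the upper quartile was 0.38, for Cct5 0.31, for Cct3 0.19 and for Cct8 -0.026. After the length and GC correction, which brought rho over the abundant genes to 0.0017, the CCT median was 0.41 as before and rho over the 8 was 0.93. The corrected log2 fold change was 0.78 for Cct7, 0.54 for Cct3, 0.53 for Cct5 and -0.022 for Cct8, and 0 of the 8 passed. What part of the order comes from base composition beyond such a correction was not tested.

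**Figure D3:**
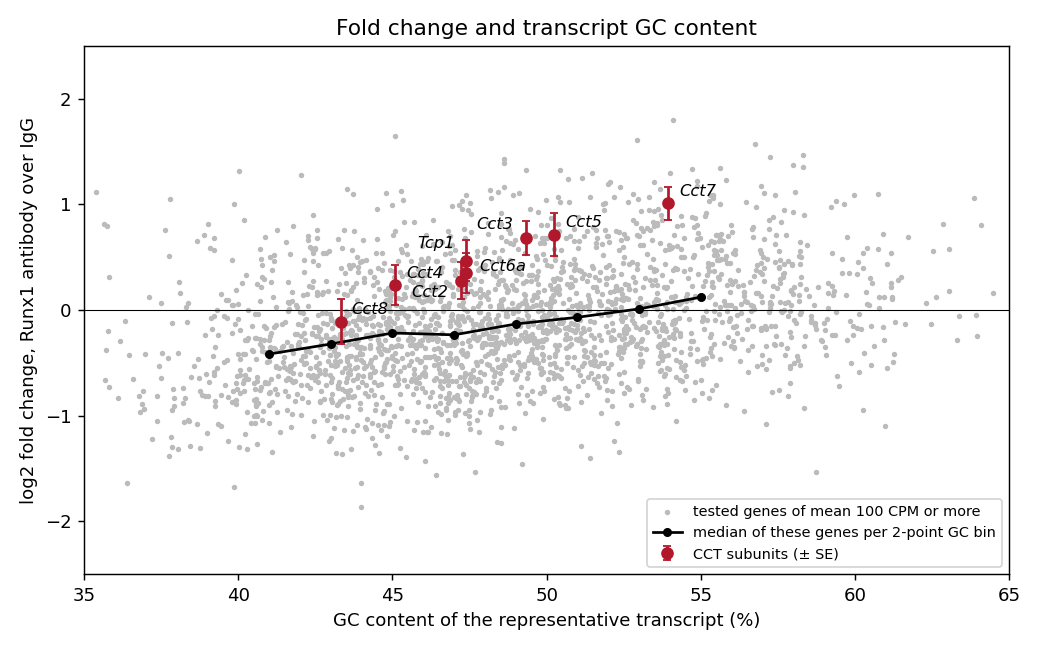
Log2 fold change, Runx1 antibody over IgG, against GC content of the representative transcript (%) for the 8 CCT subunits (red, ± SE) and for tested genes of at least 100 CPM (grey, 6 genes beyond 35 to 65% not drawn), with the median of these genes in 2-point bins (black). The CCT genes climb from Cct8 at 43.3% GC and -0.11 to Cct7 at 54.0% and 1.01, above the black line throughout; under spike-in scaling all 8 are below 0.

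Genes that overlap the CCT genes, or carry copies of them, held fewer counts than the subunits. Shares of overlap are given here over the exons of all transcripts of a gene together. In Cct7 these hold 6778 bases, against 2441 in the transcript used for its length and GC content. Exons of Pradc1 on the opposite strand cover 214 bases, or 3.16%, of these exon bases of Cct7. Pradc1 had 1 and 16 counts in the Runx1 libraries and 22 and 14 in the IgG libraries. Usp16 covers 6.22% of Cct8 on the opposite strand, with 78 and 106 counts against 154 and 96. Psph covers 12.5% of Cct6a, with 30 and 94 counts against 32 and 82. Each of these had fewer counts than its partner. In Runx1 replicate 2 the 106 of Usp16 stood beside 594 of Cct8, and the 94 of Psph beside 530 of Cct6a. Reads of such pairs cannot be told apart without strand, whose use in counting is not given in the sources used here.

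Tcp1 is overlapped on the opposite strand by Mrpl18 (69 and 77 counts in the Runx1 libraries, 120 and 68 in the IgG libraries) and by Acat3 (0 and 2 against 0 and 0). A stretch of 445 bases of Acat2 is 98.7% identical to the opposite strand of Tcp1, and Acat2 had 147 and 132 counts in the Runx1 libraries and 114 and 176 in the IgG libraries. Tcp1 itself had 687 and 647 counts against 917 and 731. A processed pseudogene of Cct7 on the X chromosome, Gm5380, shares 209 bases with it at 97.1% identity. It had 0 and 0 counts in the Runx1 libraries and 18 and 17 in the IgG libraries (edgeR adjusted p = 0.241), few beside the 1267 and 757 counts of Cct7 with IgG. The pseudogene Cct3-ps1 had 0 counts in all libraries. The small nucleolar RNA genes inside Tcp1 (Gm26130) and Cct6a (Snora15) had 0 counts too.

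Partners of the chaperonin were examined next, by role. Prefoldin, which hands actin and tubulin to CCT, had 6 of 6 subunit genes tested, with 0 higher and 0 lower in edgeR and limma-voom, 0 at an unadjusted p under 0.05, and a median log2 fold change of 0.12. DESeq2 gave an adjusted p for 0 of the 6. The 3 with the smallest p were Vbp1 (23.9 and 14.3 CPM in the Runx1 libraries, 19.8 and 48.8 CPM in the IgG libraries), Pfdn4 (14.3 and 12.2 against 2.86 and 9.27 CPM) and Pfdn1 (16.7 and 8.48 against 13.0 and 6.85 CPM). The edgeR adjusted p was 0.633 for Vbp1, 0.684 for Pfdn4 and 0.925 for Pfdn1. Pfdn4 stood at a log2 fold change of 0.47 without IgG replicate 1 and 2.15 without IgG replicate 2. The phosducin-like cofactors, which bind the open chaperonin, had 3 of 4 tested, with 0 called by edgeR or limma-voom, 0 of the 2 with an adjusted p called by DESeq2, and 0 at an unadjusted p under 0.05. Pdcl3 stood at 115 and 119 CPM in the Runx1 libraries and at 69.5 and 79.8 with IgG (log2 fold change 0.62 ± 0.30, edgeR adjusted p = 0.402), Txndc9 at 0.67 ± 0.64 and Pdcl at -0.47 ± 0.57.

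Of the chaperonins outside CCT, 0 of 4 tested were called by edgeR or limma-voom. Hspd1, the mitochondrial chaperonin HSP60, stood at 830 and 713 CPM in the Runx1 libraries and at 686 and 757 CPM with IgG, with overlapping groups (log2 fold change 0.067 ± 0.14, edgeR adjusted p = 0.894). Its lid Hspe1 stood at 41.8 and 20.7 against 18.7 and 25.4 CPM. Mkks, a CCT-like protein of the Bardet-Biedl group, had 14.3 and 53.0 CPM in the Runx1 libraries and 7.03 and 6.85 CPM in the IgG libraries (log2 fold change 2.25 ± 0.79, edgeR adjusted p = 0.251). Its value rested on Runx1 replicate 2, and it stood at 0.99 without that library and at 2.87 without Runx1 replicate 1, where edgeR called it (adjusted p = 0.0212). Mkks alone had an unadjusted p under 0.05, DESeq2 gave an adjusted p for Hspd1 alone of the 4 and did not call it, and the testis genes Cct6b and Cct8l1 were at 0.

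Hsp90aa1, Hsp90ab1 and Hspa8 rose relative to the typical gene. Of 10 cytosolic chaperones tested, 3 were higher, 0 were lower and 7 did not pass in edgeR, where 0.306% of all tested genes and 1.55% of those with at least 100 CPM were higher. With no adjustment 5 were higher and 1 lower at a p under 0.05, beside 1766 of all 12401 tested genes in either direction. DESeq2 and limma-voom each called 3 higher and 0 lower, and the list median was 0.65. Hsp90aa1 stood at 7230 and 6759 CPM in the Runx1 libraries and at 3849 and 4286 CPM with IgG (log2 fold change 0.75 ± 0.074, edgeR adjusted p = 0.00858). Hspa8, the constitutive HSP70, which works together with CCT on some clients, had a log2 fold change of 0.71 ± 0.12, and Hsp90ab1 one of 0.59 ± 0.087 (edgeR adjusted p = 0.0438 and 0.0348). Under the spike-in scaling the 3 stood at -0.51, -0.56 and -0.69. After the length and GC correction Hsp90aa1 was still called (0.92) and Hspa8 (0.55) and Hsp90ab1 (0.45) were not.

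Among the clients, actins and tubulins held the other calls. Of 5 actins tested 2 were higher, 0 lower and 3 did not pass in edgeR (0.306% of all tested genes were higher), and the median was 1.25. Both Runx1 libraries lay above both IgG libraries in all 5, as in 24.1% of all tested genes. With no adjustment 4 actins were higher and 0 lower at a p under 0.05, beside 1766 of all 12401 tested genes in either direction. DESeq2 and limma-voom each called 2 actins higher and 0 lower. Actb stood at 500 and 579 CPM against 206 and 240 CPM with IgG (log2 fold change 1.25 ± 0.18, edgeR adjusted p = 0.0310), and Actg1 at 1458 and 1542 CPM against 901 and 934 CPM (0.68 ± 0.11, edgeR adjusted p = 0.0418). Acta2 had 1.59 ± 0.50 and did not pass (edgeR adjusted p = 0.204). Of 14 tubulins tested 1 was higher, Tubb5 (1255 and 1487 CPM in the Runx1 libraries, 611 and 566 in the IgG libraries, log2 fold change 1.19 ± 0.13, edgeR adjusted p = 0.0122), and 13 did not pass in edgeR, among them Tubb4b (1.18 ± 0.32) and Tuba1b (0.41 ± 0.16). With no adjustment 3 of the 14 tubulins were higher at a p under 0.05 (again beside 1766 of 12401 tested genes). Limma-voom called Tubb5 alone, and DESeq2 called Tubb5 and Tubb4b (DESeq2 adjusted p = 0.0112 for Tubb4b). Tubb4b was also called by edgeR without a low-count filter (adjusted p = 0.00489), without Runx1 replicate 1 (0.00409) and without IgG replicate 2 (0.0446). Tuba1b was called by edgeR without Runx1 replicate 1 (0.60, adjusted p = 0.00287) and stood at 0.12 without Runx1 replicate 2. Under the spike-in scaling Actb (-0.016), Actg1 (-0.59) and Tubb5 (-0.098) were below 0, and after the length and GC correction Tubb5 alone of the 3 was still called.

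Of the 6 tubulin folding cofactors, which take tubulin on after CCT, 0 were called by edgeR or limma-voom and the median was 0.014. Tbcd stood at 16.1 and 20.7 CPM in the Runx1 libraries and at 63.7 and 60.8 CPM with IgG, with groups that did not overlap and a log2 fold change of -1.78 ± 0.47 that did not pass (edgeR adjusted p = 0.150). It was the 1 cofactor with an unadjusted p under 0.05, and DESeq2 called it lower. Tbcc (1.56 ± 0.89, with 29 and 46 counts in the Runx1 libraries and 43 and 6 in the IgG libraries) and Tbca (-0.95 ± 0.69) lay on opposite sides of 0. Tbcc stood at 3.04 without IgG replicate 1 and at 0.86 without IgG replicate 2. Of 16 other clients, such as WD-repeat and cell cycle proteins, 0 were called by edgeR or limma-voom, 1 had an unadjusted p under 0.05, and the median was 0.36. Ppp2r2a, a regulatory subunit of the phosphatase PP2A, stood at 217 and 230.5 CPM against 325 and 354 CPM with IgG (log2 fold change -0.63 ± 0.18, edgeR adjusted p = 0.186, called lower by DESeq2), and the mitotic genes Plk1 (0.96 ± 0.42) and Cdc20 (0.79 ± 0.37) did not pass either.

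**Figure D4:**
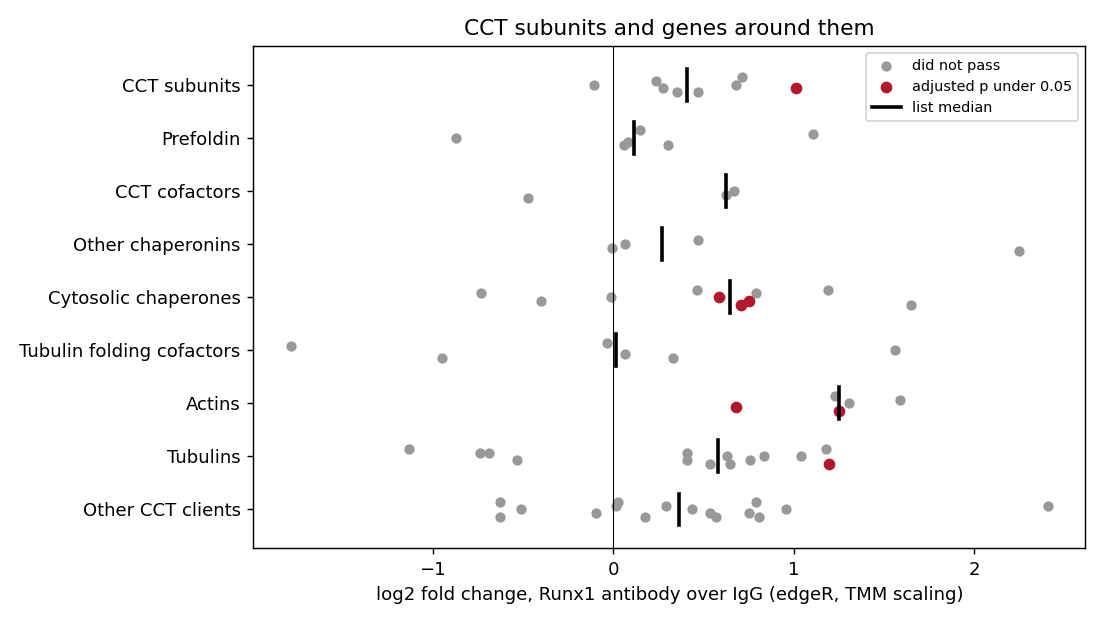
Log2 fold change (TMM scaling, Runx1 antibody over IgG) of every tested gene in the CCT list and in 8 lists of partners and clients, 1 point per gene, red where the edgeR adjusted p is under 0.05, with the list median as a black bar. The CCT median is 0.41, with Cct7 the 1 red point, and red points elsewhere lie in the cytosolic chaperones (3), actins (2) and tubulins (1), all of which are below 0 under spike-in scaling.

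The genes nearest to the summed CCT mRNAs in pattern were looked for among 4066 protein-coding genes of at least 50 CPM outside the lists. Likeness was the Euclidean distance between log2 CPM profiles centred over the 4 libraries. The nearest were Eef1b2 (distance 0.036), an elongation factor subunit, Cpsf2 (0.038), a factor of mRNA 3′ end formation, Flywch1 (0.043), Lrch1 (0.055) and Rps27a (0.077), a ubiquitin and ribosomal protein fusion. Eef1b2, for example, had 457 and 369 CPM in the Runx1 libraries and 296 and 279 CPM in the IgG libraries. Of the CCT genes, Cct6a was nearest to the sum of which it is a part (0.16) and Cct8 farthest (0.67), followed by Cct7 (0.53). With 4 libraries, many genes can share a profile.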

How the data were processed

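The authors deposited one table of raw counts per Ensembl gene and spike-in, with 1 column per library, without normalization. The tools STAR 2.7.3a, Salmon 1.1.0 and Trimmomatic 0.36 and the build mm10 are named, with no role or order, per the submitters' processing notes. Per the labels' protocols, RNA from protein A beads was reverse transcribed by a method for single cells, and the cDNA was sonicated. For the annotation, the strand setting and any filter, the choice is not given in the sources used here. Library sizes leave out the 92 spike-in rows, and 55394 of 55573 gene identifiers matched a gene with a transcript sequence in GENCODE M21.

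Runx1 and IgG libraries were compared in R 4.3.3 by the quasi-likelihood test of edgeR 4.0.16 (TMM, filterByExpr with a minimum count of 10 and total of 15, no block, two-sided, Benjamini-Hochberg over 12401 genes). The SE of a log2 fold change is the one implied by the test statistic. CPM are computed on all gene counts. No molecular identifiers are named, so intervals and the limit set by 3 counts cover counting error only. Replicates of an antibody differed beyond sampling noise (chi-square per degree of freedom 11.2 and 12.1). A gene's length and GC content are those of the transcript with the longest coding part. Shared stretches were found with blastn 2.17.0. The gene test was tested on simulated data.

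The members, the gene lists and the tests were chosen with earlier results of these data known. Named were the 8 subunits, the called genes of each partner list and otherwise the 3 genes with the smallest p, the 5 genes most alike in pattern, and genes sharing sequence with a subunit. Alternatives were DESeq2 1.42.0, limma-voom (limma 3.58.1), other scalings and filters, removal of mitochondrial and haemoglobin genes, the replicate number as a block, leaving out each library (the lone library of an antibody is then assumed to vary like the other pair), and natural splines (5 degrees of freedom, prior count 2) of length and GC content as offsets. The GC relation was added after seeing the data. Further marker lists, of blood progenitor, macrophage, platelet, mesenchymal and epithelial genes, had 0 members called by edgeR and limma-voom, 0 to 2 with an unadjusted p under 0.05 per list, and 1 called by DESeq2 (Csf1r). The value of Csf1r rested on Runx1 replicate 2, with 20 and 272 counts in the Runx1 libraries and 48 and 24 in the IgG libraries.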

Additional observations from a re-analysis of the deposited data

How the results depend on the processing

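Alternative settings changed calls more than directions, apart from the spike-in scaling. Of all tested genes, 80 were called in the main test. There were 3933 calls under spike-in scaling, 549 with no low-count filter, 284 with at least 10 counts in every library, 590 with DESeq2, 222 with limma-voom, 46 after the length and GC correction, and 176 to 600 with 1 library left out. With the replicate number as a block 2 genes were called, 0 of them CCT subunits and 0 of them in the partner lists. The same-numbered libraries deviated with a correlation of 0.0044 and nothing in the labels pairs them, so a call lost under the block is not read as a weaker effect.

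The number of CCT subunits called higher, 1 in the main test, was 0 under spike-in scaling and after the length and GC correction, 2 with either other filter and with limma-voom, 3 with DESeq2, and 1 to 2 with 1 library left out. The number called lower was 0 except for 4 under spike-in scaling, and 0 with each library left out. The partner lists had 6 genes higher and 0 lower, where 0.306% of all tested genes were higher and 0.339% lower. Under spike-in scaling these became 0 and 15, where 0.153% of all tested genes were higher and 31.6% lower. After the length and GC correction 2 were higher (32 of 12401 tested genes), and with DESeq2 2 were lower (344 of 12401).

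The log2 ratio of the CCT share, 0.51, was -0.78 per spike-in count and 0.37 to 0.65 with 1 library left out. Under spike-in scaling the log2 fold change was -0.78 for Tcp1, -0.99 for Cct2, -0.58 for Cct3, -1.05 for Cct4, -0.59 for Cct5, -0.92 for Cct6a and -0.27 for Cct7. It was -0.76 for Hspe1, -1.20 for Hspd1, -0.051 for Pfdn4, -1.02 for Pfdn1, -0.64 for Pdcl3, -0.59 for Txndc9, -0.016 for Actb, -0.59 for Actg1, -0.098 for Tubb5, -0.075 for Tubb4b, -0.87 for Tuba1b, -0.32 for Plk1, -0.54 for Cdc20, -0.51 for Hsp90aa1, -0.69 for Hsp90ab1 and -0.56 for Hspa8, since one factor per library moves all genes together. Pfdn1 stood at -0.016 after the length and GC correction.

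With 1 library left out, Cct8 ranged from -0.44 to 0.13, Hspe1 from -0.15 to 0.87, Hspd1 from -0.071 to 0.15, Pfdn1 from -0.29 to 0.82 and Pdcl from -0.98 to 0.31. For the other changes of call in single genes, the cause was not tested. The lowest CCT count was 520, and the number of libraries, 2 per antibody, limits the test, so that a gene that did not pass is not shown to be unchanged.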
